A study of Mus musculus with 8 samples.

Results

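Brain capillaries are lined by endothelial cells, and 10 genes that mark these cells or build the blood-brain barrier were followed through 8 maps of open chromatin. The genes were taken by name: Cldn5, Pecam1, Flt1, Erg, Tek, Kdr, Cdh5, Mfsd2a, Slc2a1 and Foxq1, 10 of 21887 protein-coding genes in the mouse table. Every deposited peak within the gene body or 20 kb on either side (mm10) was collected. These windows held 41 of the 90691 regions that ranked among the 50000 strongest of any library, 26 over the gene bodies and 15 in the flanks, and all 10 genes had at least 1.

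Endothelial cells are joined by adherens and tight junctions, and in the brain the tight junctions are sealed so that solutes cannot pass between cells. Growth factor receptors (VEGF and angiopoietin receptors) and transcription factors of the ETS and forkhead families keep the cells in their state, and dedicated transporters carry glucose and lipids across them. Endothelial nuclei are a minority in brain tissue, so a bulk map shows their open chromatin mixed with that of neurons and glia.

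ATAC-seq maps accessible DNA through the sites that the Tn5 transposase can reach, and it was run on aliquots of 50000 nuclei from mice of C57Bl/6J background. Fn14 knockouts (KO; Fn14 is the receptor of the cytokine TWEAK) and wild-type littermates (WT) gave frozen coronal sections with cortex, hippocampus and the dLGN (dorsal lateral geniculate nucleus, a thalamic centre for vision) at postnatal day 27, untreated, with 2 libraries per genotype. C57Bl/6J mice given chow with PLX5562, as the labels spell it, to remove microglia, or control chow, from postnatal day 20 to 32, gave microdissected dLGN, with 2 libraries per chow. The labels do not say how the knockout allele was made, whether it acts in all cells, or how many mice went into a library, so spreads and p-values measure only the differences between these libraries. Tissue differs together with age, freezing and dissection, which cannot be told apart.

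The deposited lists held 248989 to 299822 peaks, which merged into 192168 to 218214 regions per library. Read depth is unknown. Libraries were compared by counts and by ranks. The count was the number of selected regions in a gene's window, where selected means among the 50000 with the highest −log10 p of a library. The rank was the place of a region in its list, where rank 1 is the strongest and a region with no peak or ranked below the shortest list got 192169. The −log10 p and fold values below are the authors' own for each peak and describe it within its list. At Tnfrsf12a, the Fn14 gene, both KO libraries had 0 peaks over the gene and the other 6 libraries had 1 each. Cortical and hippocampal neuron markers (10 genes) had 27 to 36 selected regions in section libraries and 19 to 21 in dLGN libraries, with 0 members higher and 3 lower in every dLGN library than in any section library. Over all 18142 genes with a selected region these shares were 6.54% and 8.95%. Thalamic markers (8 genes) had 30 to 35 and 28 to 39, which overlap, although the dLGN lies in the thalamus, with 1 member higher and 1 lower.

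Promoters are shown first, because they separate genes with an open start in every library from one with none. RefSeq promoters (GRCm38.p6, the mm10 build) matched 7 of the 10 genes, and Cldn5, Kdr, Mfsd2a and Slc2a1 had a peak over the start in all 8 libraries. Tek, added after its values were seen, had none within these ranks in any library. The 250 bases before the start are given 5′ to 3′ on the strand of the gene, with CpG dinucleotides in capitals. Their positions are chr4:119108495-119108744 (plus strand) for Slc2a1, chr5:75978456-75978705 (minus) for Kdr, chr4:122961189-122961438 (minus) for Mfsd2a, chr16:18776597-18776846 (plus) for Cldn5 and chr4:94739039-94739288 (plus) for Tek.
Slc2a1: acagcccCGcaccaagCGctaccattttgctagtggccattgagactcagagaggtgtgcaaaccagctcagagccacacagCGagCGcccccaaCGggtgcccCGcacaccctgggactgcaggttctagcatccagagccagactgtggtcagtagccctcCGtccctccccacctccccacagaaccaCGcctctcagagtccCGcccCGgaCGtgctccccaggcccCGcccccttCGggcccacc
Kdr: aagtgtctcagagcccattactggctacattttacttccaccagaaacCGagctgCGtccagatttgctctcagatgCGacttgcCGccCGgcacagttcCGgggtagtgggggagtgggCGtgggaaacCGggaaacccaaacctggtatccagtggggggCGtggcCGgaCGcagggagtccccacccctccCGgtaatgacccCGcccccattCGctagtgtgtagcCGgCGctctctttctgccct
Mfsd2a: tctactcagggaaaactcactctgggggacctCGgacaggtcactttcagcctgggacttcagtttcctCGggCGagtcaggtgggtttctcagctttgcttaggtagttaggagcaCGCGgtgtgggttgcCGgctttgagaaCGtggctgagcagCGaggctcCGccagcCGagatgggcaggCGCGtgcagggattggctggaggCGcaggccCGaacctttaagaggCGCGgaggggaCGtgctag
Cldn5: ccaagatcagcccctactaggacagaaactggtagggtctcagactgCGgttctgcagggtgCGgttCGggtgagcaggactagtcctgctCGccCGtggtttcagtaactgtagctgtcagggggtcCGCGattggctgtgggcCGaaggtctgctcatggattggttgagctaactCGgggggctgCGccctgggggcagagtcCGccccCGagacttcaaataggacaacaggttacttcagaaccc
Tek: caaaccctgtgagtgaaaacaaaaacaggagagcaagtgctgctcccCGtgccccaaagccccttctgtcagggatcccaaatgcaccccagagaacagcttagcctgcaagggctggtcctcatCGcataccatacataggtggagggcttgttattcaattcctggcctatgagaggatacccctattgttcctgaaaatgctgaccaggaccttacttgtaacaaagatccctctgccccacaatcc

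The 4 starts with a peak in every library carried 12 to 17 CpGs, and the Tek start carried 2, a number that 15.1% of 21263 protein-coding promoters fell below. The median promoter had 10. CpG content alone did not order them, because the Flt1 start with 23 CpGs had a counted peak in 4 of 8 libraries. The ranks of the starts ran far apart. The Slc2a1 start had a geometric mean rank of 6617, Kdr 44459, Mfsd2a 45970 and Cldn5 97502, beside a median of 28612 over 17492 genes with a promoter. Across all these genes 50.1% had a start that was selected in all 8 libraries, and of the 7 members with a promoter only Slc2a1 did. Between tissues 0 of the 7 starts ranked higher in every dLGN library (background 6.83%) and 1, Slc2a1, ranked lower (19.1%). Between genotypes 0 ranked higher in both KO libraries (13.9%) and 1, the weak Erg start, ranked lower (12.8%). Between chows 0 ranked higher under PLX chow (5.02%) and 1, Erg again, ranked lower (14.5%).

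Motif letters were searched on both strands of the 250 bases. The ETS core AGGAAG occurred in Flt1 and in 1 of the 3 Erg promoters, beside 28.5% of all promoters. The longer ETS form ACAGGAAG, which contains the core, had no match in any member and was present in 2.62% of all promoters. The SOX letters AACAAT occurred in Tek and in the same Erg promoter (8.22% of all), and the GATA letters AGATAA in that Erg promoter (8.81%). KLF letters CCACCC occurred in Kdr and Flt1 (30.2%). Forkhead TGTTTAC (2.62%), TCF/LEF CTTTGAT (2.82%) and AP-1 TGANTCA (6.13%) had no match in the members. A match here describes letters and shows no binding.

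**Figure D1:**
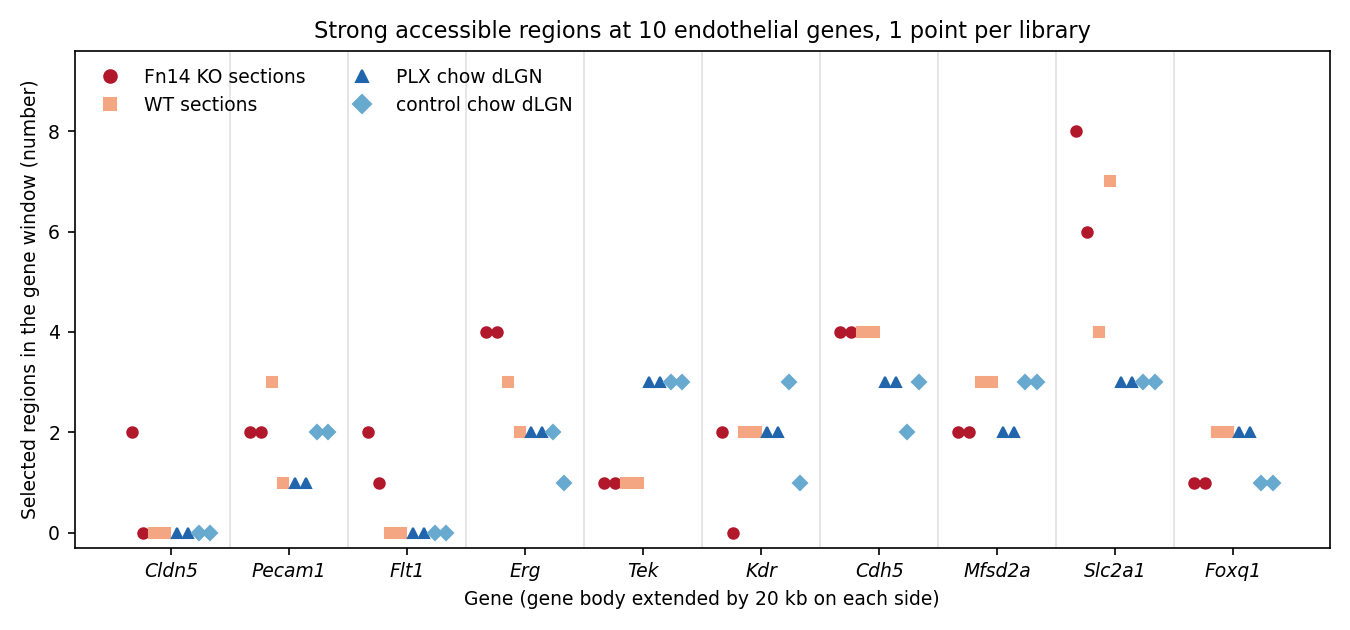
Number of selected regions (vertical axis) in the window of each gene (horizontal axis), with 1 point for each of the 8 libraries and colour and shape for the 4 groups. Tek sits at 3 in every dLGN library and at 1 in every section library, while Slc2a1 sits at 3 in dLGN and at 4 to 8 in sections.

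Over all 10 genes the section libraries had 28 and 21 (KO) and 22 and 22 (WT) selected regions, and the dLGN libraries 18 and 18 (PLX chow) and 19 and 17 (control chow). The groups did not overlap, with 23.2 ± 3.20 in sections and 18.0 ± 0.82 in dLGN (SD, n = 4 each). Over all 18142 genes with a selected region the sums were 57581 to 61062 in sections and 54098 to 56665 in dLGN, so that the ratio of dLGN to sections was 0.945 for all genes and 0.774 for the 10. Slc2a1 made up 3.25 of the difference of 5.25 regions, and without it the sums overlapped (15 to 20 in sections, 14 to 16 in dLGN, ratio 0.882). They also overlapped with 25000 selected regions (7 to 9 and 6 to 8, ratio 0.906), with 100000 (49 to 70 and 38 to 53), with all deposited peaks (94 to 127 and 87 to 115) and over gene bodies alone (13 to 17 and 11 to 14). Without KO 1 they did not overlap (21 to 22 and 17 to 19, ratio 0.831). Slc2a1 and KO 1 were left out after their values were seen. Fewer endothelial nuclei and less open chromatin per nucleus cannot be told apart in such bulk maps. Mural cell markers (12 genes, of which Anpep had no selected region) went the other way, with 18 to 22 in sections and 23 to 26 in dLGN, 2 members higher and 1 lower. The windows of the mural genes Kcnj8 and Abcc9 overlap, so a region there can enter this sum for both. Kcnj8 had 1 selected region in each dLGN library and 0 or 1 in section libraries. Microglial markers (12 genes) had 19 to 24 and 14 to 17, with 0 higher and 2 lower, and astrocyte markers (10 genes) 45 to 63 and 47 to 49, with 0 higher and 3 lower. Oligodendrocyte markers (10 genes) had 36 to 53 and 38 to 53, with none separated. Ratios of dLGN to sections, beside 0.945 for all genes, were 1.20 for mural, 0.726 for microglial, 0.886 for astrocyte and 1.01 for oligodendrocyte markers. The counts of separated markers stand beside 6.54% of all genes higher and 8.95% lower, and each rests on 3 or fewer genes. The part of these other cell types in the endothelial counts was not tested.

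Between tissues, 1 of the 10 genes, Tek, had more selected regions in every dLGN library than in any section library, and 2, Cdh5 and Slc2a1, had fewer. Over all 18142 genes 6.54% were higher and 8.95% lower in this sense, 15.5% in both directions. The exact 2-sided permutation p was 0.0286 for each of the 3 genes, the smallest that 4 against 4 libraries can give. After Benjamini-Hochberg adjustment over all genes it was 0.184, the lowest adjusted value of any gene. No gene could therefore pass 0.05, and this adjusted test cannot set the 3 genes apart. The median difference of the 10 genes was −0.5 regions and that of all genes 0. By rank, 7 of the 41 regions stood higher in every dLGN library (17.1%, background 27.5%) and 14 stood lower (34.1%, background 29%). The share of regions separated in either direction, 21 of 41 (51.2%), was near the background of 56.6%. Every separated region had an adjusted exact permutation p of 0.0505 over all regions, the lowest of any region, so none could pass 0.05.

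**Figure D2:**
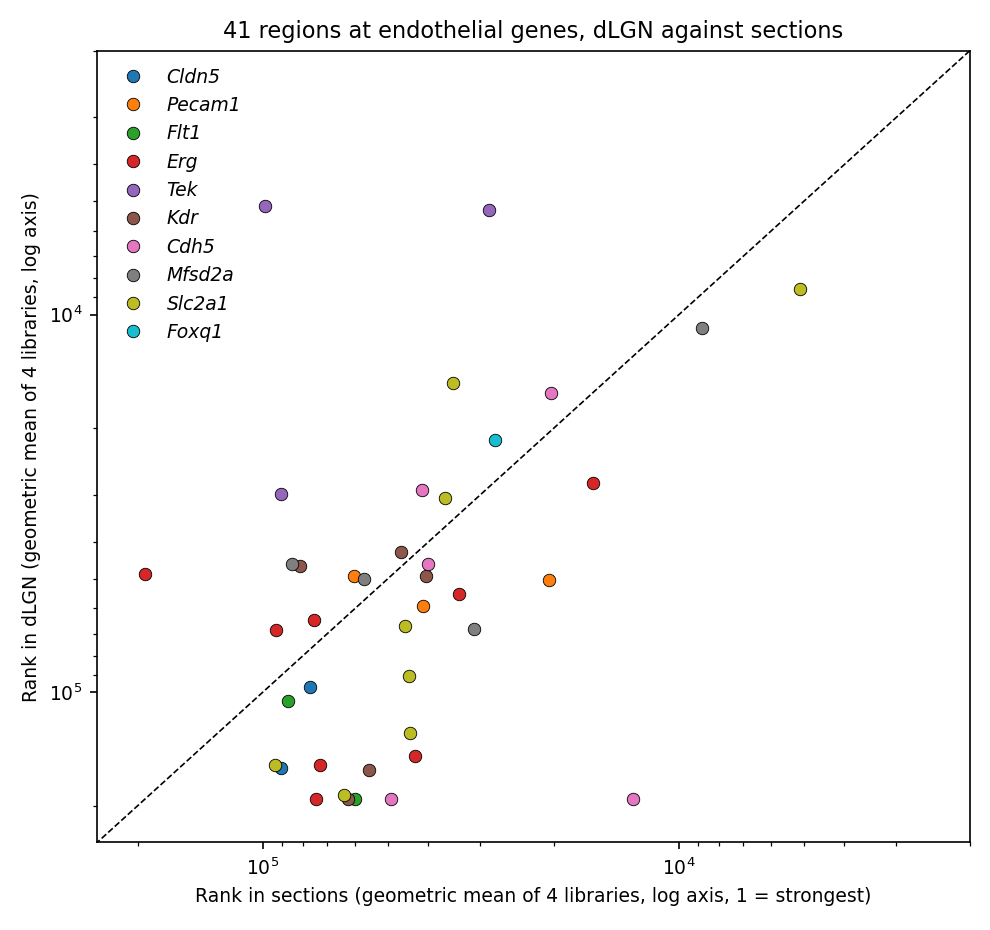
Geometric mean rank of each of the 41 regions over the 4 section libraries (horizontal) and the 4 dLGN libraries (vertical), both on log axes with the strongest rank of 1 toward the upper right, coloured by gene. The dashed line marks equal ranks. 2 Tek regions lie far above it, at 5149 and 5291 in dLGN, and a Cdh5 region lies far below it at 12857 in sections and 192169 in dLGN.

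Among junction and adhesion genes, Cdh5 held the clearest contrast. Cdh5 encodes VE-cadherin, the adherens junction protein of endothelium, and spans chr8:104101613-104144504. It had 4 selected regions in each of the 4 section libraries, 3 and 3 in PLX chow and 2 and 3 in control chow, counts that overlapped with 25000 or 100000 selected regions and with all deposited peaks. Region 4 of its window, inside the gene at chr8:104127039-104127922, ranked 14282 and 8951 in KO and 18590 and 11498 in WT, and no dLGN library had a peak there. The authors' −log10 p was 70.2, 87.1, 43.2 and 55.5 in those 4 libraries, with folds of 8.0 to 10.4. It was the only one of the 41 regions selected in every library of 1 tissue without a peak in the other, a class that held 1.9% of all regions for sections and 1.05% for dLGN. Of the 1725 section-only regions, 74 (4.29%) had a better mean rank.

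Other Cdh5 regions were shared. Region 5, 1666 bp beyond the end of the gene with the higher coordinate (chr8:104146170-104146941), was selected in all 8 libraries, with ranks of 14954 to 17030 in dLGN and 18125 to 25689 in sections, which did not overlap. Region 3, 1655 bp outside the end with the lower coordinate, was also higher in dLGN (24856 to 35132) than in sections (35665 to 51765). Both of these small differences overlapped when regions were ranked by fold. Region 1, 13399 bp outside that end, had a peak in the 4 section libraries alone, with ranks of 38903 to 56022. The window thus held regions that separated the tissues in both directions.

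Pecam1, which encodes the adhesion molecule CD31, lies at chr11:106654213-106715281. All 3 of its regions fell inside the gene and had a peak in every library. Region 1 (chr11:106658025-106658709) ranked 13904 and 22686 in KO, 22068 and 25413 in WT, 47392 and 44196 under PLX chow, and 42842 and 71933 under control chow. Every section library stood above every dLGN library, with geometric means of 20508 and 50405. Regions 2 and 3 overlapped between tissues.

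Cldn5 encodes claudin-5, the main tight junction claudin of brain endothelium, in a short gene (chr16:18776847-18778262). Its start region had a peak in all 8 libraries, yet was selected only in KO 1. The ranks were 43416 and 104828 in KO, 75286 and 102411 in WT, 130150 and 73051 under PLX chow, and 90715 and 101586 under control chow, and tissues, genotypes and chows overlapped. The authors' −log10 p there ran from 5.9 to 25.3. These values belong to the strongest peak anywhere in the region of 1068 bp. Over the start itself the ranks were 111371 in KO 2, 130303 in WT 1 and 188042 in PLX 1, and unchanged in the other libraries. The second region of the window lay inside the neighbouring gene Cdc45, 17166 bp away, and was also selected only in KO 1. Only 1.78% of all genes with a selected region had a lower mean count over the 8 libraries than Cldn5, a marker that is strongly expressed in endothelium.

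Of the receptors, Tek stood apart. Tek encodes TIE2, the angiopoietin receptor, at chr4:94739086-94874976. Each section library had 1 selected region and each dLGN library 3, with no spread within either tissue. Region 1 (chr4:94752260-94753005), inside the gene with its centre 13344 bp from the start, ranked 56391 and 23041 in KO, 21519 and 23737 in WT, 3298 and 6252 under PLX chow, and 6696 and 5678 under control chow. Region 2 (chr4:94765165-94765638), 26113 bp from the start, ranked 43165 in KO 1, 61503 in WT 1 and 187960 in WT 2, and KO 2 had no peak. In the dLGN it ranked 3402, 6060, 6911 and 4932.

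Both regions were therefore among the strongest in the dLGN lists, with −log10 p of 184 to 295 and folds of 16.4 to 21.4. In sections the folds were 2.0 to 8.3. The lists differ in scale, since the median fold of selected regions was 8.56 to 9.41 in dLGN and 6.40 to 7.02 in sections. The geometric mean rank of region 2 was 5149 in dLGN and 98956 in sections, a ratio of 19.2, and only 0.129% of all 90691 regions shifted further toward dLGN. For region 1 the ratio was 5.39, with 4.82% of regions shifting further. Region 3 (chr4:94827258-94827789) followed with 27830 to 35663 in dLGN and 58506 to 137453 in sections. All 3 Tek regions separated the tissues in 1 direction, and with WT and control chow libraries alone they did so too. No peak ranked within the first 192168 regions of a list covered the Tek start in any library, and all 3 regions lay within the gene. With 100000 selected regions per library the Tek counts overlapped between tissues.

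**Figure D3:**
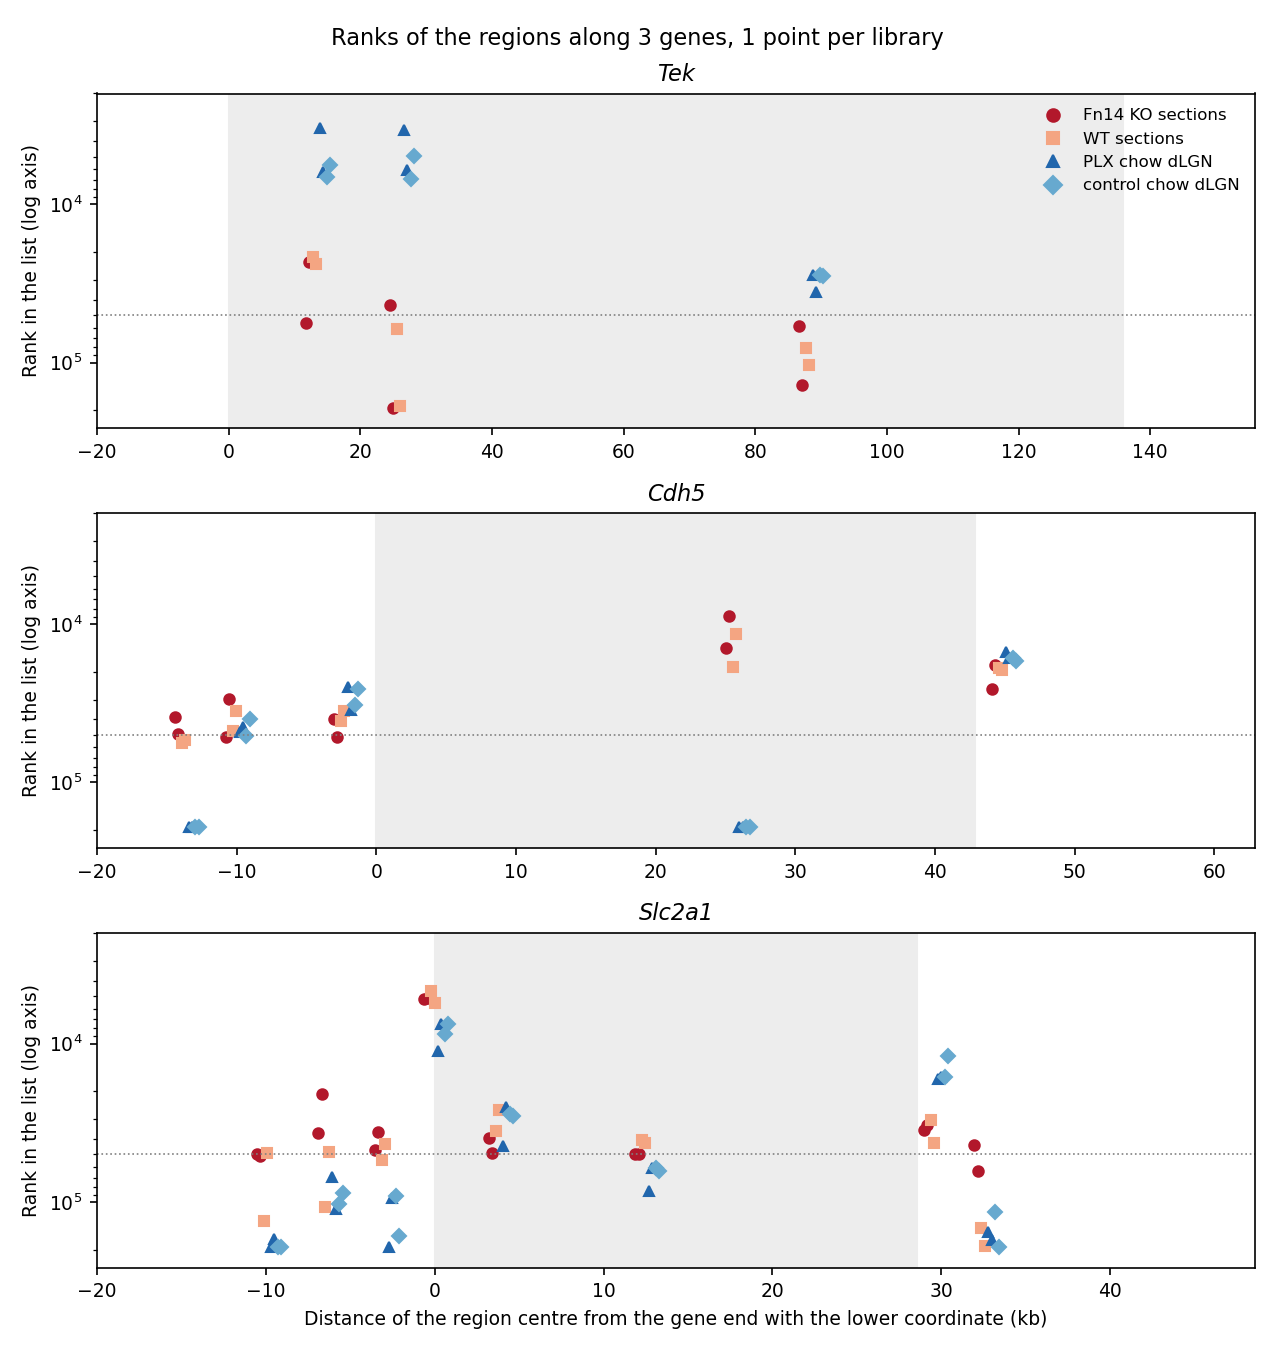
Rank of each region (log axis, strongest at the top) against the distance of its centre from the gene end with the lower coordinate (kb), for Tek, Cdh5 and Slc2a1, with 1 point per library spread slightly sideways. Grey marks the gene body, the dotted line is rank 50000, and points at 192169 are regions without a peak or ranked below the shortest list. The dLGN points stand above the section points at all 3 Tek regions, and at the Cdh5 region inside the gene all dLGN points are at 192169.

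Flt1 and Kdr encode the VEGF receptors VEGFR1 and VEGFR2. Flt1 (chr5:147561604-147726438) had 2 and 1 selected regions under KO and 0 in each of the other 6 libraries. Its region 2 (chr5:147707450-147707837), inside the gene, ranked 41833 and 33074 in KO and 97850 and 95774 in WT, and no dLGN library had a peak. Kdr (chr5:75932827-75979072) had 2 and 0 in KO, 2 and 2 in WT, 2 and 2 under PLX chow, and 3 and 1 under control chow. The Kdr start ranked 27379 to 65031 over the 8 libraries with full overlap between groups. Region 3 of Kdr, inside the gene, had a peak in every section library (ranks 42453 to 99963) and in no dLGN library.

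Erg encodes an ETS factor that maintains endothelial identity, and it had the longest gene of the 10 (chr16:95359169-95586600). It held 8 regions, and 4 were selected in only 1 library. Region 1, 16933 bp outside the end with the lower coordinate (chr16:95340990-95342236), was selected in all 8 libraries and ranked 14804 to 17601 in sections and 24338 to 31450 in dLGN, without overlap. Region 3, inside the gene, ranked 23233 and 37612 in KO, 44701 and 87417 in WT, 92969 and 137622 in PLX 1 and control 1, and had no peak in the remaining dLGN libraries. Region 5 (chr16:95533475-95533733) went the other way, with ranks of 37187 to 59727 in dLGN and no peak in any section library. It was selected in only 2 of 4 dLGN libraries and so missed the rule for dLGN-only regions.

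Foxq1, a forkhead factor enriched in brain endothelium, had 1 region of 2404 bp over the end with the lower coordinate (chr13:31557775-31560178). It was selected in all 8 libraries, with ranks of 16662 to 28234 in dLGN and 21764 to 36178 in sections, which overlap. All selected regions at Foxq1 lay within this stretch, and a list held 1 or 2 of them there. Whether a count of 1 reflects an undivided stretch or a part that was not selected was not tested.

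Among transporters, Slc2a1, the glucose transporter GLUT1 of the barrier, had the most regions. It lies at chr4:119108745-119137330 and showed 8 and 6 selected regions for KO, 4 and 7 for WT, and 3 for each dLGN library. The start region (chr4:119108208-119109463), whose sequence is given above, ranked 5199 and 5168 in KO, 4626 and 5527 in WT, 11054 and 7493 under PLX chow, and 8634 and 7480 under control chow. All section libraries stood above all dLGN libraries, with a geometric mean of 5120 and 8552. Region 7 (chr4:119138042-119138844), 712 bp beyond the other end, reversed this order, with 11997 to 16740 in dLGN and 30386 to 42253 in sections. With 25000 selected regions per library the count difference at Slc2a1 turned as well, from −3.25 (dLGN minus sections) to 0.75, since 2 regions of each dLGN list and 1 or 2 of each section list ranked that high. The counts overlapped with 100000 selected regions and with all deposited peaks.

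Mfsd2a carries lipids with omega-3 fatty acids into the brain and restrains transcytosis at the barrier. The gene (chr4:122946850-122961194) had 2 and 2 selected regions with KO, 3 and 3 with WT, 2 and 2 under PLX chow, and 3 and 3 under control chow. Region 1 (chr4:122955111-122956107), 5579 bp inside from the start, was stronger than the start itself in every library and ranked 6038 to 14326 in all 8. Tissues overlapped at all 4 Mfsd2a regions.

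Between genotypes, Flt1 and Erg had more selected regions in both KO libraries and Mfsd2a and Foxq1 fewer. These were 4 of 10 genes beside a background of 9.13% higher and 6.31% lower (15.4% in all). The Foxq1 call came from 1 or 2 selected regions within the single stretch described above. With 2 libraries against 2 the smallest p of the exact permutation test is 0.33, so that test cannot pass 0.05. Erg had 4 and 4 in KO and 3 and 2 in WT. The 2 genotypes did not differ in any region by presence alone, since 0 of the 41 regions were selected in both libraries of 1 genotype and missing in the other, beside 0.0132% (KO) and 0.00441% (WT) of all regions. By rank, 10 regions stood higher in both KO libraries (24.4%, background 17.6%) and 8 lower (19.5%, background 19.7%), 18 of 41 in all beside 37.3% of all regions.

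The 10 higher regions lay at 6 genes. Both Flt1 regions stood higher in KO, region 2 with geometric means of 37197 and 96806, and 3 of the 8 Erg regions did so too. Erg region 4, inside the gene, ranked 50599 and 43231 in KO and 103654 and 134583 in WT. Erg region 7 ranked 18414 and 27367 in KO and 34293 and 75873 in WT. Slc2a1 regions 2 and 8, in the flanks, ranked 36479 and 20876 against 107065 and 48597, and 43397 and 63364 against 146396 and 189865. The others were Pecam1 region 2, Cdh5 region 1 and Cldn5 region 2.

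Lower ranks in KO lay at Mfsd2a, Kdr, Foxq1, Erg and Slc2a1, of which Erg and Slc2a1 also held regions that stood higher. At Mfsd2a, 3 of the 4 regions stood lower in both KO libraries, among them region 1 (8698 and 14326 in KO, 6038 and 7891 in WT) and region 2 (82169 and 72475, 45842 and 38979). At Kdr region 2 the ranks were 53382 and 71433 in KO and 29544 and 24008 in WT. At Foxq1 they were 32338 and 36178 in KO and 22900 and 21764 in WT, and at Erg region 8, outside the gene, 96852 and 93670 against 64184 and 47955. Slc2a1 regions 5 and 6, inside the gene, and Mfsd2a region 4 made up the 8. The starts of Slc2a1, Kdr, Mfsd2a and Cldn5 overlapped between genotypes.

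**Figure D4:**
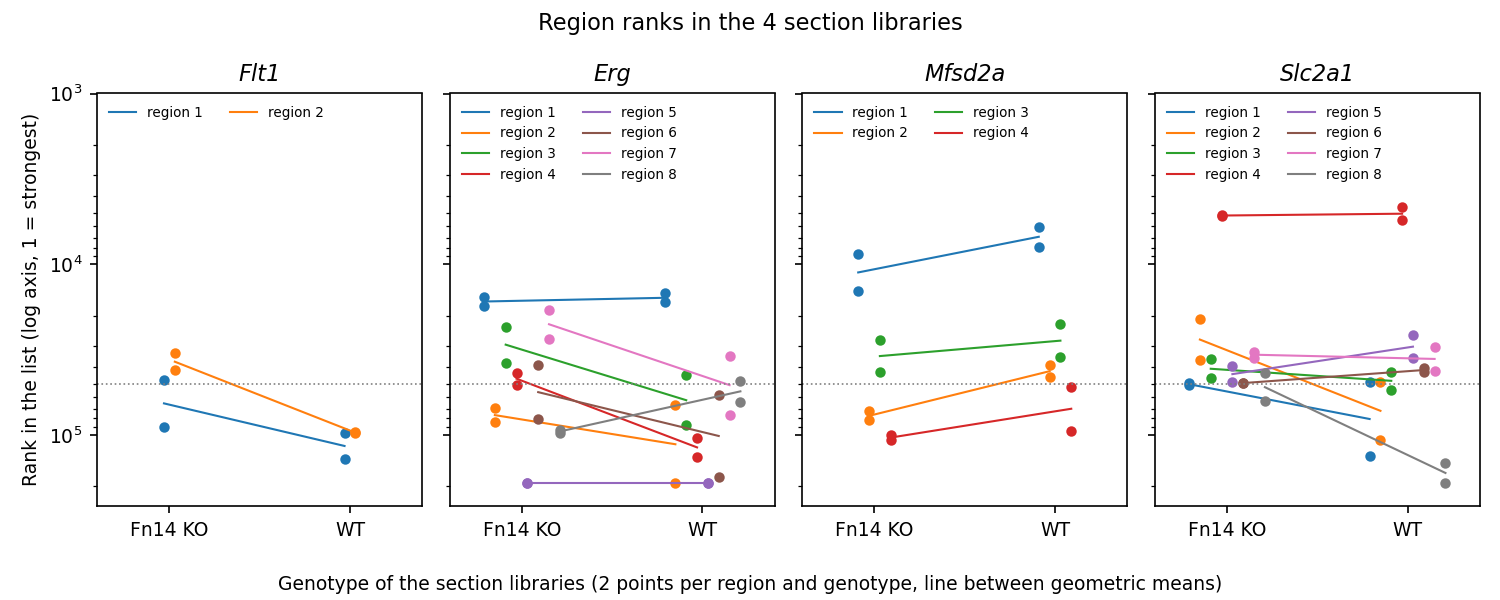
Rank of each region (log axis, strongest at the top) in the 2 Fn14 KO and 2 WT section libraries for Flt1, Erg, Mfsd2a and Slc2a1, with 2 points per region and genotype and a line between the geometric means. The dotted line is rank 50000. Both Flt1 regions stand higher in KO, 3 of 4 Mfsd2a regions stand lower, and the Slc2a1 start (region 4) is level.

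KO 1 contributed much of the KO side. Of the 10 regions selected in only 1 library, 6 were selected in KO 1, 2 in WT 2, and 1 each in KO 2 and PLX 2, while over all regions KO 1 held 19.9% of such cases. The sum over the 10 genes was 28 in KO 1 and 21 to 22 in the other 3 section libraries. Selected regions at mural markers numbered 22 in KO 1, 18 in KO 2, and 22 and 20 in WT, which overlap. Other marker lists separated the genotypes. Microglial markers had 24 and 21 in KO and 20 and 19 in WT. Cortical and hippocampal neuron markers had 36 and 29 against 27 and 28, and astrocyte markers 45 and 54 against 63 and 57. Over all genes the sums were 61062 and 57886 in KO and 58723 and 57581 in WT, which overlap. Ratios of KO to WT were 1.15, 1.18 and 0.825, beside 1.02 for all genes. Members separated were 2 higher in KO for microglial, 2 higher and 2 lower for cortical and hippocampal, and 2 lower for astrocyte markers. Over all genes 9.13% were higher and 6.31% lower. The part of the cell make-up of these libraries in the endothelial values was not tested.

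Between chows, Foxq1 had more selected regions in both PLX libraries, all within the single stretch described above. Pecam1 and Mfsd2a had fewer (1 and 1 against 2 and 2 for Pecam1). These were 3 of 10 genes beside a background of 3.1% higher and 3.53% lower (6.63% in all). The smallest p of the exact permutation test is again 0.33. The sum over the 10 genes was 18.0 ± 0 under PLX chow and 18.0 ± 1.41 under control chow (SD, n = 2 each). By rank only 5 of 41 regions separated the chows (12.2%, background 26.9%), 1 higher and 4 lower under PLX chow. At Mfsd2a region 4, 1631 bp outside the gene beyond its start, ranks were 40754 and 70810 under PLX chow and 39103 and 39202 under control chow. Kdr region 1 ranked 44873 and 80649 against 38192 and 33443. Flt1 region 1 had no peak in PLX 1 and ranked 96674 in PLX 2, against 87627 and 77080. Pecam1 region 3 ranked 50926 and 52886 against 44521 and 48941. Higher under PLX chow was Cdh5 region 5, with 14954 and 16315 against 16433 and 17030. No region was selected in both libraries of 1 chow and missing in the other, beside 0.0011% of all regions for PLX chow and 0% for control chow. Microglial markers had 14 and 15 selected regions under PLX chow and 17 and 15 under control chow, which overlap. Mural markers separated the chows as a sum, with 26 and 25 under PLX chow and 24 and 23 under control chow (ratio 1.09). Of the single mural genes, 0 separated the chows. Over all genes the sums were 54098 and 56665 against 55576 and 55956, which overlap (ratio 0.993). The part of mural cells in the endothelial values was not tested.

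A wider list of 61 endothelial and barrier genes, of which 59 had a selected region and Tie1 and Sox17 had none, was counted in the same way. Its sums were 180 to 187 in sections and 179 to 190 in dLGN, which overlap. Between tissues 5 of the 59 were higher and 4 lower in dLGN (8.47% and 6.78%), near the 6.54% and 8.95% of all genes, so the counts do not set the list apart. The 5 higher were Angpt1, which encodes the TIE2 ligand angiopoietin-1 (8.5 ± 0.58 in dLGN and 5.25 ± 1.71 in sections; SD, n = 4 each), the Wnt co-receptor gene Adgra2 (6.25 ± 0.50 and 3.75 ± 0.50), the ETS factor gene Ets1, the efflux pump gene Abcb1a and the ligand gene Vegfc. Lower were Abcc4, Reck (1.75 ± 0.50 and 3.75 ± 0.96), Sox18 (1.75 ± 0.50 and 3.75 ± 0.50) and Sox7. SOX18 and SOX7 are endothelial transcription factors, and Reck is a partner of Adgra2 in Wnt7 signalling. The exact permutation p was 0.0286 for each of the 9 genes and 0.184 after Benjamini-Hochberg adjustment over all genes. As above, no gene could reach a lower value.

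In the genotype comparison 7 of the 59 were higher in both KO libraries and 4 were lower (11.9% and 6.78%), near the 9.13% and 6.31% of all genes. Higher were Nos3 (7 and 6 in KO, 5 and 3 in WT), Icam2, Slc7a5, Eng, Lrp6, Lsr and Tfrc. Lower were Nrp1 (5 and 6, 7 and 7), a VEGF co-receptor, Robo4, Tal1 and Vegfa. Lsr and Tfrc lie outside the naming rule and were named after their values were seen. In the chow comparison 0 were higher and 4 of the 59 (6.78%) were lower under PLX chow, beside 3.1% and 3.53% of all genes. The 4 were Fli1 (2 and 3 against 4 and 4), an ETS factor, Axin2, Cgn and Egfl7.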

How the data were processed

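Peaks were called by the authors per library with the ENCODE ATAC-seq pipeline on mm10 (paired-end, multimapping 0, p threshold 0.01), per the deposited pipeline instructions; file names record a limit of 300000 peaks. deepTools 3.5.0 appears in the submitters' processing notes without a step. For the aligner and the peak caller, names and versions were not given in the sources used here. The deposited columns used were the fold enrichment (a ratio), the −log10 p and, unused in results, a score.

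Here overlapping peaks of a library were merged (1 bp or more), keeping the highest −log10 p. Selected regions were the 50000 strongest of a library, and their union gave the 90691 regions. Ranks used lists cut to 192168 regions. A gene or region was called separated when the libraries of the 2 groups did not overlap. Gene intervals came from the RefSeq table (GRCm38.p6). Functions were tested on simulated data. Python 3.11.15, numpy 2.4.6, pandas 2.3.3 and matplotlib 3.10.9 were used.

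The members and lists were chosen with earlier results of these data known. All 10 genes were named, with the best-ranked region of each, regions over a start, regions called for 1 group, the 3 largest shifts per direction, and 5 wider-list genes per direction. Regions outside this rule were named after their values were seen. Replicate numbers were not taken as pairs.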

Additional observations from a re-analysis of the deposited data

Results flagged for a closer look

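Single libraries stood far from the other 3 of their tissue at 15 of 104 sets of values tested (Dixon's criterion, which chance meets in about 1 of 20 sets). Counts of a few regions meet it easily when the other 3 tie. In sections, KO 1 had 28 selected regions over the 10 genes and 2 at Cldn5, where the others had 0, and KO 2 had 0 at Kdr, where the others had 2. KO 1 ranked 56391 at Tek region 1 (others 21519 to 23737) and 38086 at Kdr region 5 (others 61568 to 64447). WT 1 ranked 132070 at Slc2a1 region 1 (others 49126 to 50846).

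In dLGN, control 2 had 1 selected region at Erg (others 2) and control 1 had 2 at Cdh5 (others 3). PLX 2 ranked 45414 at Erg region 2 (others 76602 to 80049), 35663 at Tek region 3 (others 27830 to 28489), 70810 at Mfsd2a region 4 (others 39103 to 40754) and 171986 at Slc2a1 region 1, where the others were at 192169. Control 1 ranked 93010 at Kdr region 5, with the others at 192169. PLX 1 ranked 84553 at Slc2a1 region 6 (others 60527 to 63942), and control 2 ranked 11997 at Slc2a1 region 7 (others 16160 to 16740).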

How the results depend on the processing

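Counts of separated genes moved with the number of selected regions. With 25000 per library they were 1 for tissues, 1 for genotypes and 0 for chows, with 100000 they were 1, 2 and 1, and with all deposited peaks the chow count was 5. Regions called for 1 group with 100000 selected numbered 8 for tissues and 1 for genotypes. The windows held 16 regions with 25000 selected and 92 with 100000, beside 41 in the main setting. Regions with separated ranks numbered 10, 6 and 1 for tissues, genotypes and chows with 25000 selected, and 33, 41 and 15 with 100000. For tissues these were 10 of 16 and 33 of 92, beside 21 of 41, so the share fell as more regions were selected. It lay above the share over all regions with 25000, and below it with 100000 and in the main setting. Within gene bodies alone the separated ranks numbered 12 of 26 for tissues, again a share below that over all regions, and 3 for chows. Ranking by fold gave 3 for chows. Taking the replicate number as a block gave 12 for chows and moved no other count by over 1.5 times. Leaving out each replicate in turn gave 3 to 4, 5 to 6 and 3 to 5 separated genes, 1 to 1, 0 to 0 and 0 to 0 called regions, and 21 to 24, 27 to 31 and 18 to 24 separated ranks, where 1 library against 2 loosens the rule. Among differences between groups that did not overlap, those that changed sign outside the leave-one-out fits were Slc2a1 between tissues (0.75 with 25000), Mfsd2a (0.5) and Foxq1 (0.5) between genotypes with 100000, Foxq1 with all deposited peaks (1.5), Foxq1 between chows with 25000 (−0.5) and Pecam1 between chows with all deposited peaks (2). Of 477 values for single genes and regions under these settings, 24 changed sign, and the other 18 belonged to groups that overlapped in the main setting, such as Kdr between tissues (0.5, against −0.25 with 25000, −1 with 100000 and −0.75 with all deposited peaks). The cause was not tested. The labels tie no shared source to a replicate number, and across genes the deviations of same-numbered libraries correlated at 0.136 for genotypes and −0.0161 for chows. Read depth is unknown and limits all weak peaks.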
